A study of Mus musculus with 9 samples.

Results

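Translation initiation and elongation factors are the proteins that start and extend protein synthesis on the ribosome. The genes described here are those whose symbol on the array platform begins with Eif or Eef and a number, without the sex-linked pair Eif2s3x and Eif2s3y. Of 12393 named genes with a probe set of their own, 50 were such factors. Each was read from its brightest probe set that named it alone. Of these 50, 45 were in the brighter 50% of probe sets and were tested, beside 7254 genes in all. The other 5 were too dim to test (Eef1aknmt, Eef2kmt, Eif2ak2, Eif2ak4 and Eif4ebp1). Another 4 genes, Eef1g, Eif3j1, Eif3j2 and Eif4a3, were named only by probe sets that name several genes and have no value here. Eif2s1, the eIF2 subunit that stress kinases phosphorylate, was named by no probe set in the annotation used.

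The study asked how motor neurons differ in spinal muscular atrophy (SMA), a disease in which too little SMN protein leads to motor neuron loss, and after a cell transplant. The 9 arrays were 3 wild-type mice given vehicle, 3 transgenic SMA mice given vehicle, and 3 SMA mice transplanted with cells that the labels call NSC (from the study, neural stem cells). Surgery with vehicle or cells was at postnatal day 1 and all mice were killed at day 13, so both control groups share the surgery. The labels give neither the alleles of the SMA mice, nor strain, sex or source of the cells. By the labels, each array held laser-cut neurons of the lumbar cord from 1 animal. The arrays are named below by group and number.

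In initiation, eIF4E binds the mRNA cap and recruits the scaffold eIF4G and the helicase eIF4A. The small ribosomal subunit arrives with eIF3 and with eIF2, which carries the initiator tRNA and GTP, and eIF2B recharges eIF2. In elongation, eEF1A brings each aminoacyl-tRNA and eEF2 moves the ribosome by one codon. The 4E-BPs hold back eIF4E when mTOR is inactive, and the eIF2 kinases slow initiation under stress. Neurons and muscle replace eEF1A1 by eEF1A2 after birth, and mice without eEF1A2 lose motor neurons.

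Signals are MAS5 intensities in arbitrary units, and the level of one probe set cannot be set against that of another. Array medians were 31.4 to 35.8 and total signals 3264246 to 3508703. The hybridisation controls, spiked in after labelling, averaged 593, 700 and 623 on the 3 arrays numbered 3 and 376 to 522 on the other 6. Of 6 motor neuron markers with a probe set, 1 was bright enough to test, and their summed signal was 70.9 to 225.5 per array. Among the dim ones were Slc18a3, Slc5a7 and Prph, so the labelled cell type could not be checked by its defining markers. All 8 astrocyte markers, all 9 oligodendrocyte markers with a probe set and all 8 microglia markers were bright enough, as were 7 of 8 neuron markers. The samples thus held glial transcripts. Summed signals of the 9 oligodendrocyte markers were 30857.8 to 35504.5 in wild type, 23426.4 to 40733.6 in SMA and 31422.8 to 42804.1 in transplanted SMA. Summed signals of 3 erythroid markers were 2535 to 3367 in wild type, 1362.7 to 1462.4 in SMA and 1340.4 to 2051 in transplanted SMA, so wild type lay above both, while the globin Hba-a1 among them read 1.9 to 21.8 over the 9 arrays. Those of 8 microglia markers were 5236.8 to 10863.3, 8349.4 to 10467.4 and 4605.3 to 8602.3 in the same order. Those of 6 fibroblast and meninges markers were 7254.6 on transplanted SMA 1 and 897.4 to 4413.4 elsewhere. Summed signals of 12 skeletal muscle markers were 2682.7 on SMA 1 and 3330 on SMA 2, and 156.7 to 329.6 elsewhere. The part of these cell types in the values below was not tested. Signals of Xist, the RNA of the silent X chromosome, were 23.5 to 47.6 for wild type and SMA 3 but 366.1 to 879.5 for the other 5 arrays, so sex was uneven between groups. The Y-linked Eif2s3y read 49 to 108.9 on the 4 arrays low in Xist and 0.1 to 0.5 on 4 of the others. Transplanted SMA 3 had both signals (Xist 366.1, Eif2s3y 84.8), although the labels give 1 animal per array. Without it 0 of the 45 tested translation factors passed in the comparisons below, as with it. In such samples fewer cells of a type and less RNA per cell cannot be told apart.

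No translation factor passed the threshold of an adjusted p of 0.05 in any of the 3 comparisons. Differences below are on the log2(signal + 16) scale, with limma p-values adjusted by Benjamini-Hochberg over all tested probe sets. In SMA minus wild type, 0 of 45 passed, against 0.0414% of all tested genes (3 genes). The unadjusted p was under 0.05 for 0 of 45, against 5.83% of all genes. The smallest was 0.0512, for the 4E-BP gene Eif4ebp2 (adjusted p = 0.83).

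After transplant, in transplanted SMA minus SMA, 0 of 45 passed (0.0% of all tested genes). None had an unadjusted p under 0.05 (4.88% of all genes), and the smallest was 0.104 for Eif4b, which stimulates the helicase (adjusted p = 0.933). Against wild type, in transplanted SMA minus wild type, 0 of 45 passed (0.0% of all tested genes). Again 0 had an unadjusted p under 0.05 (6.09% of all genes), and the smallest was 0.133 for Eef1e1 (adjusted p = 0.841).

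The differences were also small in size. In SMA minus wild type they ran from -0.45 to 0.39 with a median of 0.03, while the median of all tested genes was 0.0. They were positive for 26 and negative for 19 of the 45 (57.8% positive, against 50.7% of all tested genes). After transplant against SMA they ran from -0.37 to 0.35 with a median of -0.02 (20 positive, 25 negative). Against wild type, transplanted SMA ran from -0.3 to 0.36 with a median of 0.06 (26 positive, 19 negative). With each array centred on its own median signal the medians were -0.04, -0.04 and -0.02, but this scaling moved all genes alike, to medians of -0.06, -0.01 and -0.09. All 3 medians lay within the SD of 0.08 that this median had between arrays of a group.

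The 95% intervals give the sizes that the data leave possible. In SMA minus wild type the interval lay inside a 2-fold change either way (1 on the log2 scale) for 44 of 45 genes and inside a 1.5-fold change for 24. These counts were 43 and 29 in transplanted SMA minus SMA, and 43 and 27 against wild type. For the other genes a change of 1.5-fold lay inside the interval. The median standard error was 0.18.

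**Figure D1:**
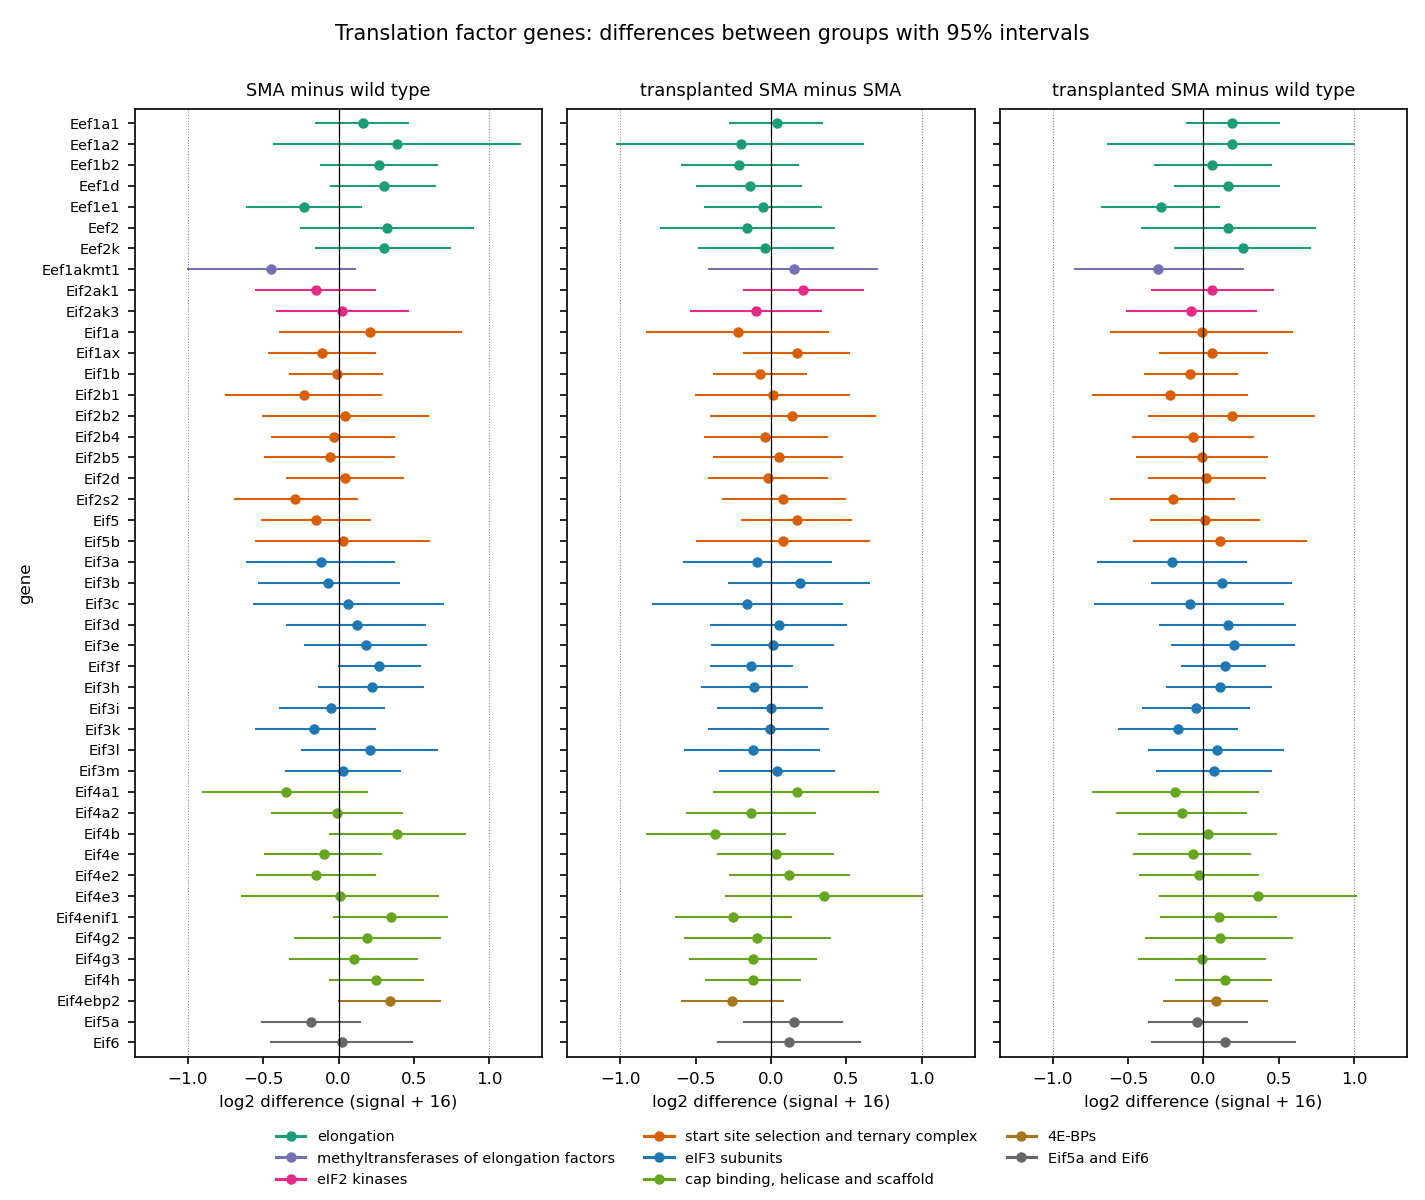
Log2 difference of signal + 16 (x axis) with its 95% interval for each of the 45 tested genes (y axis, coloured by role) in the 3 comparisons. Every interval spans 0, most lie inside the dotted lines of a 2-fold change, and those of Eef1a2 are the widest.

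Groups that do not overlap were few, and their counts are set beside the share among all tested genes. In SMA against wild type, 5 genes (Eef1d, Eif3f, Eif4ebp2, Eif4enif1 and Eif4h) had all SMA arrays above all wild-type arrays, where 5.24% of all genes did. Eef1akmt1 (1 gene) had all SMA arrays below, where 6.07% of all genes did. In transplanted SMA against SMA, 3 genes (Eif4b, Eif4ebp2 and Eif4h) were lower without overlap (4.76% of all genes) and 0 were higher (4.52%). Against wild type, Eif3f was higher (7.06% of all genes) and Eif3k lower (6.89%) without overlap in transplanted SMA.

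Many translation factor mRNAs begin with a run of C and T at the transcription start, the signal by which mTOR, the 4E-BPs and LARP1 control their translation. The start windows below are 20 bases before and 20 bases from the start, from RefSeq on GRCm38.p6, and capitals mark runs of at least 8 bases that are each C or T on the coding strand. They are shown for 4 genes whose run covers the first transcribed base by the RefSeq annotation (Eef1a1, Eif3f, Eif3l and Eif2b5). Also shown are Eef1a2, whose run lies wholly before the annotated start and so outside the annotated transcript, and the helicase gene Eif4a1, which holds none. Whether transcription in these cells starts at the annotated bases was not tested.
Eef1a1: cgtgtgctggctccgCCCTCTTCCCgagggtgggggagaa
Eef1a2: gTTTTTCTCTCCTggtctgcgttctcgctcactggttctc
Eif3f: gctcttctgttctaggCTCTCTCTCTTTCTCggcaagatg
Eif3l: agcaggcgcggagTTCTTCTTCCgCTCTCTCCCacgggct
Eif2b5: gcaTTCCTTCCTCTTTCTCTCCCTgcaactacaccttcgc
Eif4a1: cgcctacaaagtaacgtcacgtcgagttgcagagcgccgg

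These windows lie at chr9:78481705-78481744 (minus strand) for Eef1a1, chr2:181156996-181157035 (minus) for Eef1a2 and chr7:108934395-108934434 (plus) for Eif3f. Those of Eif3l, Eif2b5 and Eif4a1 lie at chr15:79075203-79075242 (plus), chr16:20498797-20498836 (plus) and chr11:69672404-69672443 (minus). Of 50 genes, 40 had a start window. A run covered the annotated first base in 4 of them (10%), against 4.2% of 17490 protein-coding genes. It lay anywhere in the window in 10 (25%), against 18.3%. The median difference in SMA minus wild type was 0.18 for the 4 with a covering run (3 positive) and 0.0 for the 32 other tested genes with a window (16 positive). With a run anywhere in the window it was 0.16 for 9 tested genes (7 positive) and -0.01 for the 27 without (12 positive). Runs were measured inside the window only, so one that reaches its edge is cut there. Eef2, counted without a run, ends its window in such a stretch of 6 bases. After transplant against SMA the medians with and without a covering run were -0.04 and -0.03. The length and position of the run were set after values were seen, so these medians are a description, and a match is not evidence of a working signal.

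Most of the 7 genes grouped under elongation read higher on average in SMA mice, without any passing the test. The group includes Eef2k, the kinase of eEF2, which is not itself an elongation factor. In SMA minus wild type 6 of 7 differences were positive (50.7% of all tested genes were), with a median of 0.3, and 0 of 7 passed. After centring on array medians the median was 0.24, again with 6 of 7 positive. The smallest p was 0.0842 (adjusted p = 0.867), for Eef1d. Eef1e1, an auxiliary protein of the aminoacyl-tRNA synthetase complex that carries the family name, was the negative one. Without SMA 1 the median was 0.1 and 6 of 7 were positive. In transplanted SMA minus SMA the median was -0.14 with 1 of 7 positive, but 0.06 with 4 of 7 positive without SMA 1 and 0.04 with 4 of 7 positive without transplanted SMA 3. The same SMA arrays stand in both comparisons, with opposite sign.

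Eef1a1, the general form of the tRNA carrier, read 6521.1, 5885.6 and 7143.1 in wild-type mice, 8251.7, 6048.1 and 7660.2 in SMA mice, and 7094.1, 7274.1 and 7970.2 in transplanted mice. The groups overlapped, and SMA minus wild type was 0.16 (SE 0.14, 95% interval -0.15 to 0.46). Its interval held any change to under 1.5-fold.

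Eef1a2, the neuron and muscle form, read 280.2, 293.4 and 318.3 in wild-type mice, 607.9, 286.3 and 348.3 in SMA mice, and 298, 641 and 202.8 in transplanted mice. SMA 1 and transplanted SMA 2 stood at about the same high level and the other 7 arrays lay at or below 348.3. This was the widest range among the 45 genes, 3.16-fold from lowest to highest, with a within-group SD of 0.56 on the log2 scale. The difference in SMA was 0.39 (SE 0.37, interval -0.43 to 1.2) and after transplant against SMA it was -0.2 (SE 0.37).

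The same 2 arrays had the highest summed signal of 8 neuron markers, 2909.7 on SMA 1 and 4042.5 on transplanted SMA 2, where the remaining 7 arrays had 1403 to 2453.2. The muscle markers were high on SMA 1 but not on transplanted SMA 2 (257.4), and on SMA 2 (3330) Eef1a2 read 286.3. The part of either cell type in the Eef1a2 signal was not tested.

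**Figure D2:**
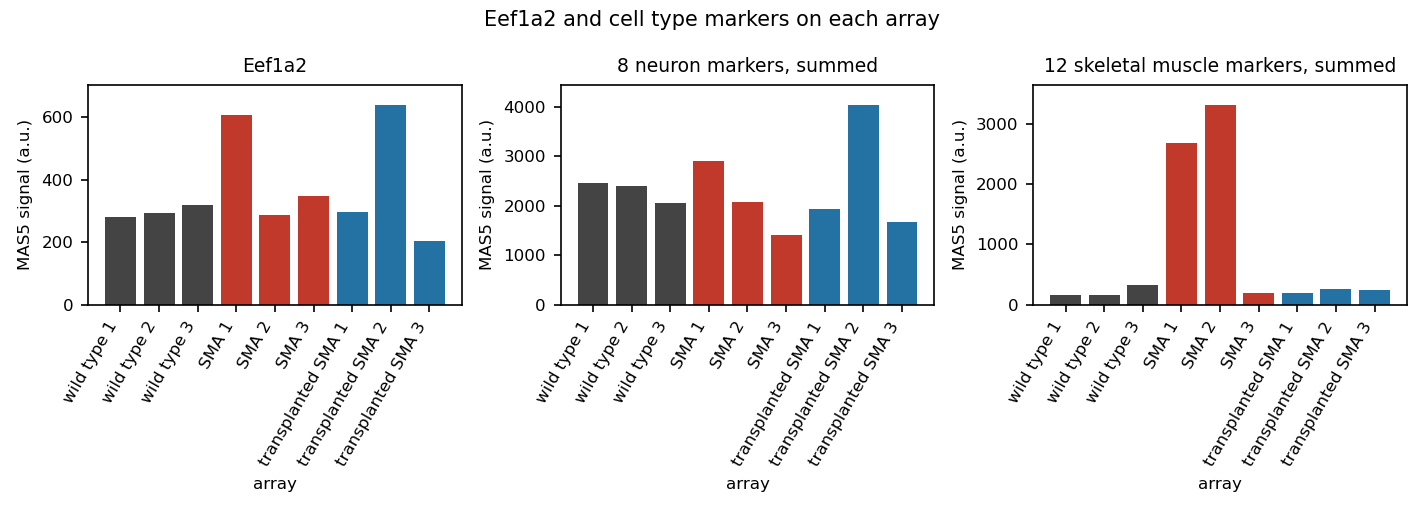
Signal of Eef1a2 and summed signals of 8 neuron and 12 skeletal muscle markers (y axes, MAS5 signal in arbitrary units) on each of the 9 arrays (x axes). Eef1a2 and the neuron markers are highest on SMA 1 and transplanted SMA 2, and the muscle markers on SMA 1 and SMA 2.

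Eef2, the translocation factor, read 1213.3, 1510.7 and 1448.9 in wild-type mice, 2375.7, 1619.6 and 1355.8 in SMA mice, and 2019.4, 1753.5 and 1058.7 in transplanted mice. The 3 groups overlapped, and SMA minus wild type was 0.32 (SE 0.26, interval -0.25 to 0.89). Its kinase Eef2k, which inhibits eEF2, was dim, with means of 38.5 ± 4.5, 51.3 ± 9.99 and 50.1 ± 13.6 (SD, n = 3) in wild type, SMA and transplanted SMA. The differences from wild type were 0.3 (SE 0.2) and 0.26 (SE 0.2).

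The exchange factors that recharge eEF1A gave no call. Eef1d read 788.6, 891.5 and 977.7 in wild type against 1138.6, 1138.6 and 996.6 in SMA, without overlap (0.3, SE 0.16, adjusted p = 0.867). In transplanted SMA it read 916.7, 924.2 and 1130.8, which overlapped both groups. Eef1b2 read 851.8 to 997.8 in wild type, 866.3, 1257 and 1240.7 in SMA and 910.7 to 1033.6 in transplanted SMA, so its higher SMA mean came from SMA 2 and SMA 3.

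Of the 3 methyltransferases that modify elongation factors, only Eef1akmt1 was bright enough to test. Eef1akmt1, which methylates a lysine of eEF1A, read 154, 150.8 and 146 in wild-type mice and 117.2, 91.7 and 110.9 in SMA mice. All SMA arrays were lower, but the difference of -0.45 (SE 0.25, interval -1.0 to 0.11) did not pass (adjusted p = 0.877). Transplanted SMA 1 read 197.5, above every wild-type array, while transplanted SMA 2 and 3 read 94.5 and 89.1. Over the 4 tested probe sets of Eef1akmt1 the difference in SMA ran from -0.45 to -0.02. A dimmer one, named after its values were seen, gave -0.44 (SE 0.15, adjusted p = 0.707). It read 52.4, 46.8 and 52.7 in transplanted mice, without the high value on transplanted SMA 1. Eef1aknmt and Eef2kmt read at most 11.2 and 5.3.

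**Figure D3:**
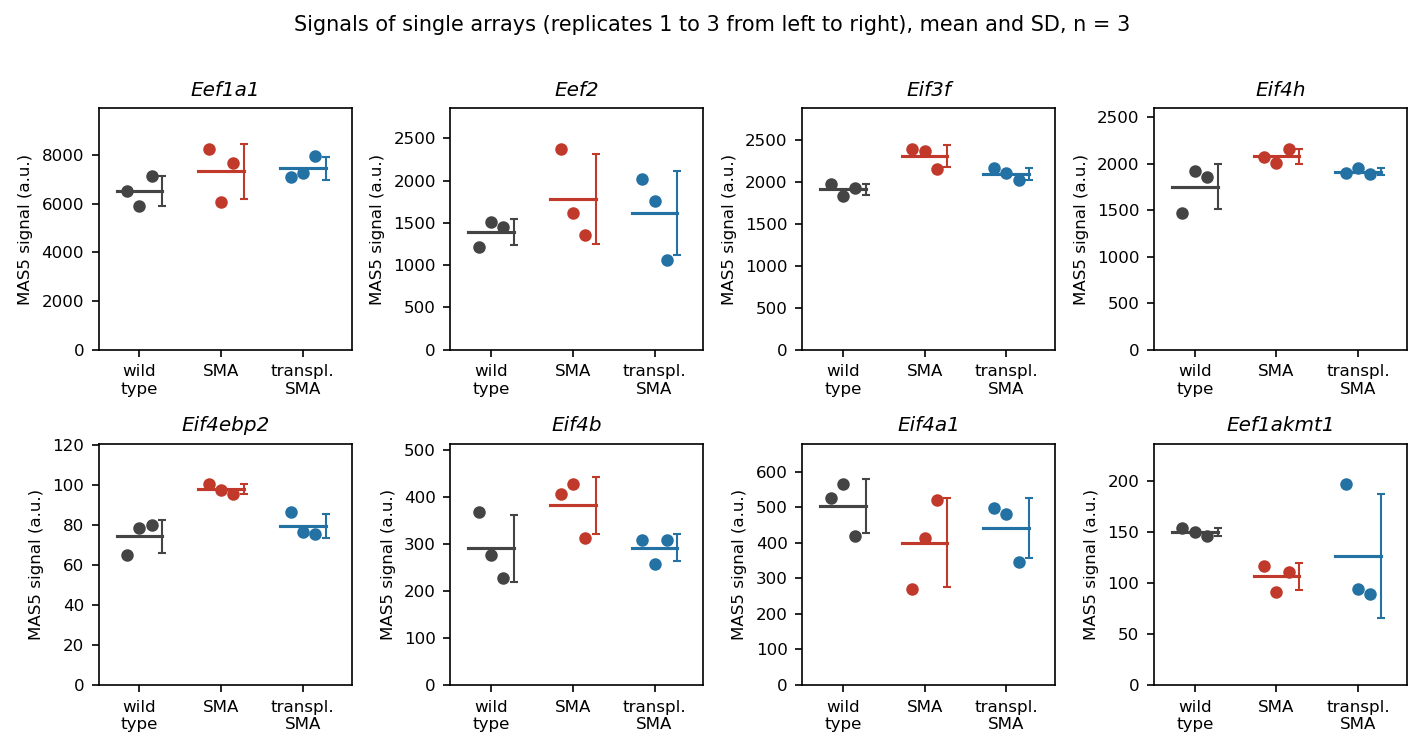
MAS5 signals (y axes, arbitrary units) of 8 genes on the 9 arrays, by group (x axes), with the mean as a bar and the SD as a whisker (n = 3). The Eif3f, Eif4h and Eif4ebp2 points of SMA lie above all wild-type points, and those of Eef1akmt1 below.

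Among the 4E-BPs and cap-binding factors, the differences nearest to the threshold had opposite signs in the 2 comparisons that share the SMA arrays. This held for the brightest probe set of each gene, and other probe sets of Eif4ebp2, Eif4b and Eif4h did not all follow. Eif4ebp2, the main neuronal brake on eIF4E, read 65, 78.7 and 79.9 in wild-type mice, 100.6, 97.5 and 95.8 in SMA mice, and 86.6, 76.7 and 75.5 in transplanted mice. The 3 SMA arrays lay above the other 6. The differences were 0.34 in SMA (SE 0.15, adjusted p = 0.83) and -0.26 after transplant (SE 0.15, adjusted p = 0.933). The other tested probe set of Eif4ebp2 gave 0.28 in SMA and 0.01 after transplant. Its relative Eif4ebp1 was too dim to test, at 16.3 to 59.3 over the 9 arrays.

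Eif4b read 367.5, 277.2 and 226.9 in wild-type mice, 405.9, 427.4 and 313.3 in SMA mice, and 307.5, 258.2 and 308.9 in transplanted mice. The transplanted arrays all lay below the SMA arrays, while wild type overlapped both. The differences were 0.39 in SMA (SE 0.21, adjusted p = 0.867) and -0.37 after transplant (SE 0.21, adjusted p = 0.933). Over the 3 tested probe sets of Eif4b they ran from 0.17 to 0.39 and from -0.37 to 0.11. Eif4h, a smaller helper of the helicase named after its values were seen, read 1473.2, 1923.9 and 1859.3 in wild-type mice, 2068.6, 2005.1 and 2160.3 in SMA mice, and 1899.6, 1954 and 1886.5 in transplanted mice. Its groups stood in the same order, with differences of 0.25 (SE 0.14) and -0.12 (SE 0.14). Over the 3 tested probe sets of Eif4h they ran from -0.05 to 0.25 and from -0.12 to 0.21.

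Eif4enif1, the protein that carries eIF4E into the nucleus and represses mRNAs, read 103.4, 132.2 and 104.9 in wild-type mice and 163.4, 142.1 and 138.7 in SMA mice. The difference was 0.35 (SE 0.17, adjusted p = 0.846), and after transplant it was -0.25 (SE 0.17), with transplanted arrays at 143, 111.4 and 112.8. The brightest probe set of the helicase gene Eif4a1 ran the other way, at 524.8, 565.7 and 420 in wild-type mice, 268.9, 414.5 and 519.2 in SMA mice, and 498.9, 481.8 and 345.4 in transplanted mice. SMA 1 was its lowest array, and the difference of -0.35 (SE 0.25, interval -0.9 to 0.19) did not pass (adjusted p = 0.944). Over the 3 tested probe sets of Eif4a1 this difference ran from -0.35 to 0.34. In transplanted SMA minus wild type they ran from -0.19 to 0.48, so the direction for this gene is not settled.

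In SMA minus wild type the brightest probe sets of the other cap-binding genes gave smaller values. Eif4e itself had means of 243 ± 16, 225 ± 21.1 and 232 ± 41.7 (SD, n = 3) in wild type, SMA and transplanted SMA, and SMA minus wild type was -0.1 (interval -0.49 to 0.28). Over the 3 tested probe sets of Eif4e this difference ran from -0.37 to 0.15, so the direction for this gene is not settled. The neuronal helicase Eif4a2 differed by -0.01 (interval -0.44 to 0.42) and the scaffold Eif4g2 by 0.19 (interval -0.29 to 0.67). Eif4e3, an eIF4E relative, was among the least steady, at 60.9, 47.1 and 113 in wild-type mice, 50.1, 69.1 and 97.4 in SMA mice, and 126.7, 74.4 and 87.1 in transplanted mice. Over the 10 genes of cap binding, helicase and scaffold the median in SMA was 0.06, with 6 positive and 0 past the threshold (0.0 with 5 positive after centring on array medians).

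The 11 eIF3 subunits, which form the platform on the small ribosomal subunit, had a median of 0.06 in SMA minus wild type (7 positive), -0.01 in transplanted SMA minus SMA (4 positive) and 0.09 in transplanted SMA minus wild type (7 positive). After centring on array medians these were 0.0, -0.03 and 0.01. None of the 11 passed the threshold. Eif3f read 1973.8, 1836.3 and 1928.7 in wild-type mice, 2399, 2367.4 and 2155.9 in SMA mice, and 2170.8, 2109 and 2027.2 in transplanted mice. Both SMA groups lay above wild type without overlap, by 0.27 (SE 0.12, adjusted p = 0.837) and 0.14 (SE 0.12, adjusted p = 0.907).

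Other subunits ran either way. Eif3e, the subunit also known as Int6, read 1224.6, 1293.2 and 1026.8 in wild-type mice and 1560.2, 1456.3 and 1053.9 in SMA mice (0.18, SE 0.18). Eif3k, a peripheral subunit, had means of 277 ± 8.98, 250 ± 50.6 and 245 ± 15.3 (SD, n = 3) in wild type, SMA and transplanted SMA, and all transplanted arrays lay below the wild-type arrays (-0.17, SE 0.18, adjusted p = 0.925). The remaining 8 subunits lay between -0.21 and 0.22 in both comparisons with wild type and between -0.16 and 0.19 in transplanted SMA minus SMA.

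The 11 genes of start site selection and the ternary complex had a median of -0.03 in SMA (4 positive; -0.09 with 1 positive after centring on array medians). Eif2s2, the beta subunit of eIF2, read 847.8, 799.4 and 863.5 in wild-type mice, 553.1, 701.6 and 821.6 in SMA mice, and 667.9, 655 and 868.7 in transplanted mice. The wild-type arrays were close together, and 4 of the other 6 lay below all of them (-0.29, SE 0.18, adjusted p = 0.93). This is the brightest of 5 tested Eif2s2 probe sets, and the other 4 had positive differences in SMA (0.03 to 0.15) and in transplanted SMA (0.15 to 0.58) from wild type, so the direction for this gene is not settled. Eif5, which triggers GTP hydrolysis by eIF2, differed by -0.15 in SMA and 0.17 after transplant (SE 0.16 each). Over the 4 tested probe sets of Eif5 these differences ran from -0.39 to -0.07 and from -0.08 to 0.17. In transplanted SMA minus wild type they ran from -0.4 to 0.01.

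The eIF2B subunits, whose mutations cause vanishing white matter disease, gave no call. Eif2b5, the catalytic subunit, had means of 129 ± 19.2, 125 ± 30.3 and 128 ± 8.55 (SD, n = 3), and its difference in SMA was -0.06 (interval -0.49 to 0.37). Eif2b1 differed by -0.23 in SMA and -0.22 in transplanted SMA from wild type (SE 0.23 each). Eif1ax, an X-linked scanning factor, had means of 414 ± 24.6, 385 ± 50.9 and 434 ± 23.1. Eif1b, named after its values were seen, had the smallest within-group SD of the 45 genes (0.05), at 647.9 to 694.8 in wild type, 650.1 to 698.4 in SMA and 619.4 to 653.4 in transplanted SMA.

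Of the 4 eIF2 kinases, 2 could be tested. Eif2ak3 (PERK), which senses unfolded protein in the endoplasmic reticulum, had means of 123 ± 17.8, 124 ± 8.97 and 117 ± 27.6 (SD, n = 3), a difference in SMA of 0.02 (interval -0.41 to 0.46). Eif2ak1, the haem-regulated kinase, had means of 93.4 ± 15.8, 81.9 ± 9.8 and 97.8 ± 13.9, and the difference after transplant was 0.21 (SE 0.18, adjusted p = 0.933). The other tested probe set of Eif2ak1 gave -0.07 after transplant, so the direction for this gene is not settled. Eif2ak2 (PKR), the kinase of double-stranded RNA, read 23.4, 21.5 and 21.4 in wild-type mice, 25, 32.4 and 27.7 in SMA mice, and 21.5, 12.9 and 22.8 in transplanted mice. Its SMA arrays were the highest 3, but the probe set was too dim to test, as was that of the amino acid sensor Eif2ak4 (11 to 32.9 over the 9 arrays).

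Eif5a, the factor that carries hypusine and helps the ribosome through difficult peptides, had means of 1640 ± 141, 1440 ± 156 and 1600 ± 140 (SD, n = 3). Its differences were -0.18 in SMA and 0.15 after transplant (SE 0.15 each). Eif6, which keeps ribosomal subunits apart and is named as the other gene of its role group, differed by 0.02 and 0.12 (SE 0.21 each).

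Values differed between arrays of one group as well. SMA 1 held the highest of the 9 values for 17 of 45 genes (37.8%), where it did so for 19.1% of all tested genes. The median of the 45 genes against their wild-type means was 0.19 on SMA 1 and between -0.05 and 0.08 on the other 8 arrays, where all tested genes had 0.06 and between -0.03 and 0.02. For the eIF3 subunits this median was 0.32 on SMA 1 but -0.16 on SMA 3, 2 arrays of 1 group. The 3'/5' ratio of Gapdh, a sign of RNA or cDNA length, was highest on SMA 1 (4.26, against 3.19 to 3.92). The same ratio of actin was 3.11 on SMA 1, inside the range of the others (2.48 to 4.32), and highest on SMA 3. The part of RNA length in these values was not tested.

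The arrays numbered 3 stood low within their groups. The lowest value of its group fell on wild type 3 for 23 of 45 genes (51.1%, against 42.7% of all genes), on SMA 3 for 26 (57.8%, against 41.9%) and on transplanted SMA 3 for 20 (44.4%, against 37.2%). These 3 arrays also had the highest hybridisation controls, and their part was not tested. For the eIF3 subunits the medians were -0.14 on wild type 3, -0.16 on SMA 3 and 0.03 on transplanted SMA 3. Without SMA 1 and SMA 2, the arrays with muscle transcripts, the eIF3 median in SMA minus wild type was -0.16, and without SMA 3 it was 0.27.

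**Figure D4:**
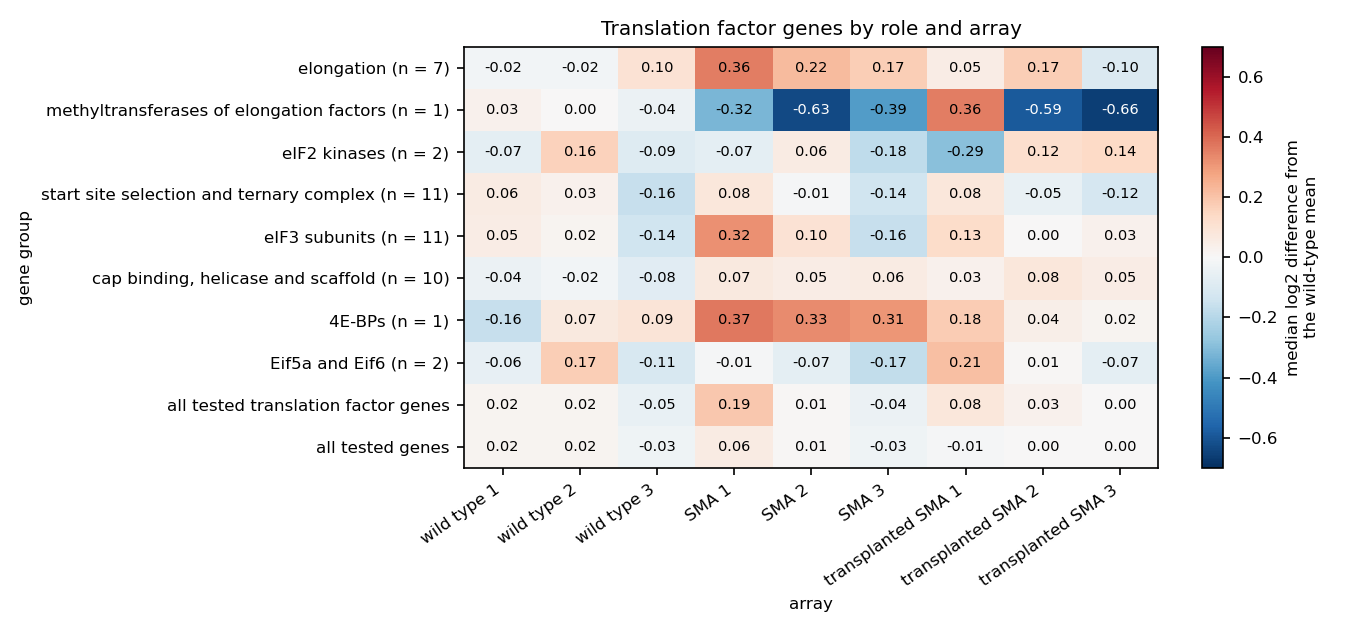
Median log2 difference from the wild-type mean (colour and printed value) of the genes of each role (y axis, number of genes in brackets) on each array (x axis). SMA 1 is high for the elongation group and eIF3 subunits (0.36 and 0.32), and the SMA arrays differ among themselves for eIF3 (0.32, 0.1 and -0.16).

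The spread of these genes was close to that of others. The median within-group SD on the log2 scale was 0.21, against 0.26 for all tested genes and 0.25 for the 2055 genes within the middle range of their brightness.

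Other probe sets of the same genes gave mixed signs. The 50 genes had 114 probe sets, of which 87 were tested, and none passed the threshold in any comparison. Unadjusted p-values under 0.05 were found for 3, 2 and 4 of the 87 in the 3 comparisons, in the order used above (smallest adjusted p 0.707, 0.933 and 0.66), where 6.04%, 4.77% and 6.55% of all 11313 tested probe sets had one. Of 23 genes with several tested probe sets, 13, 10 and 13 had differences of both signs. A dimmer probe set of Eif2s2 read 75.8, 77 and 73.5 in wild-type mice and 147.4, 127.3 and 92.7 in transplanted SMA mice (0.58, SE 0.18, adjusted p = 0.66), where the brightest gave -0.2. A dimmer probe set of Eif3e gave 0.48 in SMA (SE 0.17, adjusted p = 0.728), where the brightest gave 0.18. Both were chosen after their values were seen.

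Genes of neighbouring pathways gave no calls either. In the integrated stress response, the programme that eIF2 phosphorylation sets off, 10 of 15 listed genes were tested and 0 passed limma's test in any comparison, while 1, 1 and 0 had an unadjusted p under 0.05. The shares of all tested genes with such a p, against which this and the next 3 lists are to be read, were 5.83%, 4.88% and 6.09%. The median of the 10 in SMA was 0.08 (8 positive, 80.0% against 50.7% of all genes). Atf4, its central transcription factor, differed by 0.02 in SMA (adjusted p = 1.0). The 2 negative genes were Ddit3 and Asns, at -0.42 and -0.11 in SMA. Against wild type, Ddit3 in transplanted SMA differed by -0.51 (adjusted p = 0.754). Ddit4, an inhibitor of mTOR, read 154.3, 152.7 and 124.5 in wild-type mice, 367.4, 176.8 and 306.9 in SMA mice, and 145.4, 137.3 and 190.2 in transplanted mice. Its differences were 0.85 in SMA (SE 0.25, adjusted p = 0.568) and -0.74 after transplant (adjusted p = 0.933).

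On the mTOR axis, 12 of 16 listed genes were tested and 0 passed (0, 2 and 0 at an unadjusted p under 0.05), with a median of 0.0 in SMA and -0.07 after transplant. Larp1, which binds the C and T run of mRNAs, read 180.7, 164.8 and 165 in wild-type mice, 107.7, 159.5 and 128.1 in SMA mice, and 190.7, 190.8 and 175.5 in transplanted mice. The SMA arrays were the lowest 3 (-0.35, adjusted p = 0.846), and the difference after transplant was 0.46 (adjusted p = 0.933). Tsc1, a brake on mTOR, differed by -0.6 after transplant (adjusted p = 0.933).

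Of 14 listed genes of termination and of closing the mRNA into a loop, 12 were tested and 0 passed (0, 0 and 1 at an unadjusted p under 0.05). In transplanted SMA minus SMA 0 of 12 were positive (50.8% of all genes), with a median of -0.12, and against wild type 2 of 12 were (48.4% of all genes). The list was not tested as a set. Paip2, an inhibitor of the poly(A)-binding protein, was lowest against wild type at -0.52 (adjusted p = 0.699), from 595.6, 639.5 and 739.2 to 505.4, 496.7 and 365. Of 9 listed mitochondrial translation factors 4 were tested, with 0 of 4 positive in SMA (median -0.27, 50.7% of all genes positive) and 0 past the threshold (0, 0 and 1 at an unadjusted p under 0.05). Mrrf, the mitochondrial ribosome recycling factor, differed by -0.46 in SMA and -0.53 in transplanted SMA from wild type (adjusted p = 0.846 and 0.752).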

How the data were processed

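The authors deposited 1 MAS5 signal per probe set and array, a linear intensity, per the submitters' processing notes. Its mean after trimming 2% at each end was 100.0 on every array. The MAS5 version is not given here. Labelled cRNA came from 2 rounds of amplification, per the labels' protocols, which favours 3' ends.

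Tests used log2(signal + 16), a scale that understates changes of dim probe sets. Those brighter than the median (11313 of 22626 without controls, 50%) were tested with limma 3.58.1 in R 4.3.3 (1 model of 9 arrays, a mean per group, eBayes with trend, 6 residual and 4.93 prior degrees of freedom). Tests were two-sided, with Benjamini-Hochberg adjustment. The fit was tested on simulated data.

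Of the tested genes, those named were the 5 with the smallest p per direction and comparison and a fixed set. Any other is marked or named with its reason. Members, lists and role groups were chosen with earlier results of these data known. No replicate number was used as a pair.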

Additional observations from a re-analysis of the deposited data

How the results depend on the processing

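Each comparison was recomputed under 22 other settings (scaling, pseudocount, filter, eBayes, arrays in the fit, probe set of a gene, arrays left out) and with a threshold of 0.1 for the adjusted p. No translation factor passed in any of them, and the smallest adjusted p of any setting was 0.537 in SMA minus wild type, 0.474 in transplanted SMA minus SMA and 0.573 in transplanted SMA minus wild type. Between 0 and 5, 0 and 3, and 0 and 1 of the genes had an unadjusted p under 0.05. The 5 appeared without SMA 3 (Eif1a, Eif3f, Eif3l, Eif4a1 and Eif4b).

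The median difference of the genes changed sign with single arrays in transplanted SMA minus SMA. In the comparisons with wild type it changed sign with centring, which moves all genes alike. For SMA minus wild type it was also negative without SMA 1 and SMA 2, at -0.04, where all genes had -0.03. That setting leaves 1 SMA array. In SMA minus wild type it was 0.01 to 0.1 with 1 array left out (0.1 without SMA 3) and -0.04 with centring on array medians, which moved the median of all genes to -0.06. In transplanted SMA minus SMA it was -0.09 to 0.05 with 1 array left out and 0.08 without SMA 1 and SMA 2. In transplanted SMA minus wild type it was 0.0 to 0.07 with 1 array left out and -0.02 with centring on array medians, where all genes had -0.09. Of 589 values of named genes per comparison, 10, 9 and 3 moved by more than their error and 28, 46 and 33 changed sign. The settings of the role groups and the position of the C and T run were added after seeing the data.

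With the sample number as a replicate block, 0 genes passed in each comparison and the medians were 0.03, -0.02 and 0.06. The smallest adjusted p was 0.641, 0.722 and 0.667. The same numbers are not stated to mark shared animals or days, and correlations of deviations from the group means were -0.0832 to 0.453 between same-numbered arrays (9 pairs, median 0.118) and -0.472 to 0.332 between others (18 pairs, median -0.0474). The 3 pairs among the arrays numbered 3 were all over 0.1 (0.136, 0.273 and 0.453), but not every pair was, so the numbers were not taken as pairs. With 3 arrays a group, and signals of 5 genes near background, differences under about 1.5-fold were not resolved, and larger ones not for every gene. The interval lay inside a 1.5-fold change for only 24, 29 and 27 of the 45 tested genes in the 3 comparisons. Outside these genes, Ddit4 at 0.85 in SMA minus wild type did not pass limma's test either (adjusted p = 0.568).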
